A study of Mus musculus with 22 samples.

Results

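The monoamine and acetylcholine receptors are the cell surface proteins through which serotonin, dopamine, noradrenaline and adrenaline, histamine and acetylcholine act. They were taken as every gene with a protein_coding transcript in the deposited annotation whose symbol named a serotonin (Htr1 to Htr7), dopamine (Drd), adrenergic (Adra1, Adra2, Adrb), muscarinic (Chrm), nicotinic alpha or beta (Chrna, Chrnb) or histamine (Hrh) receptor. The rule found 50 genes among 55385 genes in the files, of which 21804 had a protein_coding transcript. A further symbol that matched, Chrna1os, had no protein_coding transcript and was left out. The rule itself uses symbols and no measured value.

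The data were RiboTag libraries, in which a Cre recombinase switches on an epitope-tagged copy of the ribosomal protein Rpl22 and messenger RNA is recovered with the tagged ribosomes, so the values describe the ribosome-bound transcripts (the translatome) of the tagged cells. All mice were 6 weeks old and carried Rpl22 Fl/+, a single allele of the tag, together with a Cre driver. Hippocampus gave dentate gyrus granule cells (Rbp4-Cre) and inhibitory interneurons (Dlx6a-Cre), cortex gave layer V cortical neurons (Rbp4-Cre), astrocytes (Aldh1-cre) and microglia (Tmem119-cre), and cerebellum gave cerebellar granule cells (Gabra6-Cre). Each cell type had 3 biological replicates. The study's methods give the astrocyte and microglia drivers as the inducible lines Aldh1l1-cre/ERT2 and Tmem119 cre/ERT2, and state that mice of inducible lines were gavaged with tamoxifen daily for 5 days from 3 weeks of age, so that tamoxifen and glial cell type cannot be told apart. Dentate gyrus granule cells and layer V neurons shared the same driver and were told apart only by the tissue dissected. Each interneuron replicate pooled the hippocampi of 2 mice, labelled as male and female for replicates 1 and 2 and as male for replicate 3. The other cell types held both sexes among their replicates. No library of untagged tissue was analysed here. Because every library is a bulk pull-down, fewer cells carrying a receptor and less receptor RNA per cell cannot be told apart.

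Most of these receptors act through G proteins. Receptors coupled to Gs raise cyclic AMP, those coupled to Gi lower it and open potassium channels, and those coupled to Gq act through phospholipase C and calcium. The nicotinic acetylcholine receptors and the serotonin receptor built from Htr3 subunits are instead ligand-gated cation channels. In the brain their ligands are released mostly by long-range axons of small nuclei in the brainstem, hypothalamus and basal forebrain, and the receptors set how excitable a cell is and how it responds to its other inputs.

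The 18 libraries compared, 1 per replicate, held 38270477 to 71440915 estimated counts, and levels are given as TPM, each transcript's share of a library after correction for its length. Each cell type held its own marker genes at a summed level of 1413 TPM or more in every library. The layer V list did not tell the 3 excitatory populations apart by its sum, and Slc17a7, the vesicular glutamate transporter they share, had means of 945, 1208 and 752 TPM in dentate gyrus granule cells, layer V neurons and cerebellar granule cells. Oligodendrocyte markers summed to between 2571 and 2750 TPM in the interneuron libraries against at most 906 TPM elsewhere, and endothelial markers to between 269 and 398 TPM in microglia against at most 57.8 TPM elsewhere. Choroid plexus markers reached 3681 TPM in astrocyte replicate 1 and 14.6 TPM or less in the other astrocyte replicates, but no receptor of at least 1 TPM there differed by more than 1.5-fold from the mean of those replicates. Dentate replicate 3 was more than 1.5-fold above the mean of the other dentate replicates for Chrm3, Htr1b, Htr5b and Htr7, and its summed markers of CA pyramidal neurons were 238 TPM against 125 and 165 TPM. Interneuron replicate 3 was above the mean of its fellows by that margin for Drd1 and Htr1d and below them for Adra2a and Drd5. All interneuron and microglia libraries came from sequencing batch 2 and the other libraries compared from batch 1. For 4 replicates sequenced in both batches, the level in batch 2 was 0.786 to 1.24 times that in batch 1 over the receptors of at least 1 TPM.

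Receptor transcripts were most numerous in interneurons and scarcest in cerebellar granule cells. Of the 50 genes, 35 reached 1 TPM in interneurons, 29 in layer V neurons, 26 in astrocytes, 25 in dentate gyrus granule cells, 18 in microglia and 11 in cerebellar granule cells. The median level over the 50 genes was 4.59 TPM in interneurons and 0.061 TPM in cerebellar granule cells, and 39 of the genes had their lowest mean there. In all, 39 genes reached a mean of 1 TPM in at least 1 cell type. The other 11 were Adra2b, Adrb3, Chrna1, Chrna6, Chrna9, Chrna10, Drd3, Drd4, Hrh4, Htr2b and Htr3b. Their highest cell type means ran from 0.032 TPM (Hrh4 in microglia) to 0.984 TPM (Adrb3 in layer V neurons).

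**Figure D1:**
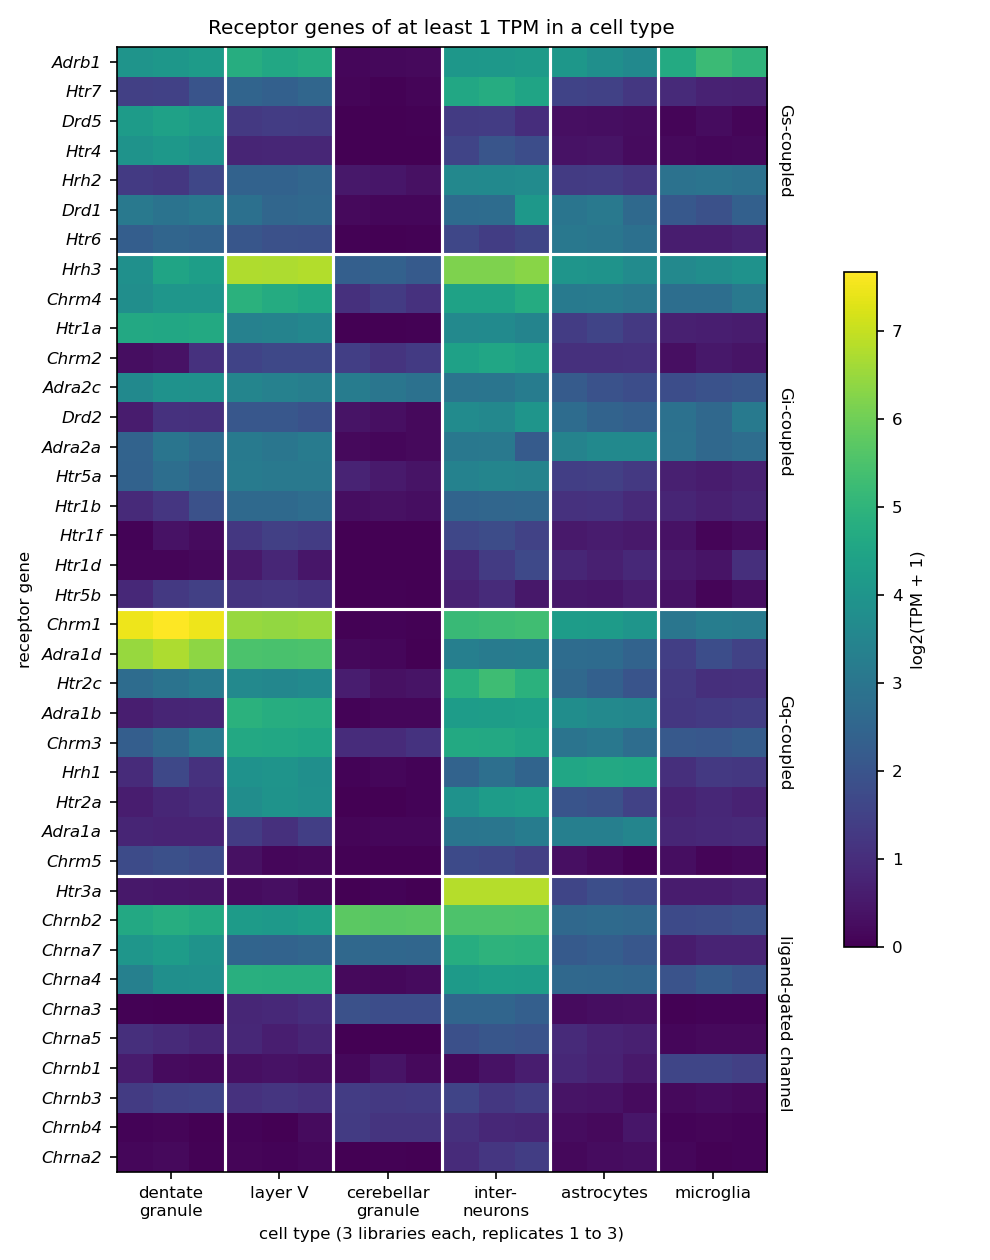
Level of the receptor genes of at least 1 TPM that are described in the text, as log2(TPM + 1), with receptor genes in rows grouped by coupling and the 18 libraries in columns grouped by cell type. The cerebellar granule cell columns are dark for nearly every row except Chrnb2, and the 3 libraries of a cell type share their pattern.

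To ask which cell type held most of each receptor, the estimated counts per gene were compared between all pairs of cell types with edgeR's quasi-likelihood test, and a difference was called at an adjusted p (Benjamini-Hochberg over the 20524 genes tested) of at most 0.05. The test covered the 45 receptor genes that passed a filter on low counts; Chrna9, Drd3, Hrh4, Htr2b and Htr3b did not pass. For 32 of them, the cell type with the highest mean was called above each of the other 5. These were 11 in interneurons, where 5.76% of all genes met the same criterion, and 7 in dentate gyrus granule cells, where 6.72% did. Layer V neurons held 6 (7.65% of all genes), astrocytes 4 (12.3%), microglia 3 (19.9%) and cerebellar granule cells 1 (15.2%). Of the 45, the 11 in interneurons, 7 in dentate gyrus granule cells and 6 in layer V neurons were above these genome-wide shares. Those in astrocytes (4), microglia (3) and cerebellar granule cells (1) were below them.

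Among the Gs-coupled receptors, Drd5 and Htr4 marked the dentate gyrus and Htr7 the interneurons. Drd5, the D5 dopamine receptor, had 17.6, 19.8 and 17.8 TPM in the 3 dentate libraries and between 1.4 and 1.56 TPM in layer V neurons, the next cell type. No library of another cell type came near the dentate range, and the fitted difference was 3.39 on the log2 scale (SE 0.21, adjusted p = 1.7e-10). Htr4, a serotonin receptor that raises cyclic AMP, had 14.3, 15.9 and 14.0 TPM in the dentate libraries and 2.0, 3.07 and 2.48 TPM in interneurons, a log2 difference of 3.04 (SE 0.18, adjusted p = 6.6e-11). In cerebellar granule cells both genes were at or next to 0, with at most 0.024 TPM for Drd5 and 0.016 TPM for Htr4.

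Htr7, a serotonin receptor linked to circadian timing, had 23.4, 26.0 and 21.2 TPM in interneurons and 4.5, 4.13 and 4.8 TPM in layer V neurons, with a log2 difference of 2.06 (SE 0.17, adjusted p = 8.1e-09). Adrb1, a beta adrenergic receptor for noradrenaline that raises cyclic AMP, was spread over most cell types: 25.0, 36.3 and 30.9 TPM in microglia, 26.4, 23.4 and 25.5 TPM in layer V neurons, and means of 13.5 to 16.4 TPM in astrocytes, dentate gyrus granule cells and interneurons. The microglia and layer V ranges overlapped, and their log2 difference of 0.35 (adjusted p = 0.0029) was not called within batch 2 (0.25, adjusted p = 0.19). Batch 2 holds 1 library each of dentate gyrus granule cells, layer V neurons, cerebellar granule cells and astrocytes, so every fit within it takes their spread from the interneuron and microglia libraries. Adrb3, the beta 3 receptor known from fat tissue, stayed at 1.18 TPM or less in every library and had no read in any cerebellar granule cell library.

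The remaining Gs-coupled receptors were lower. Drd1, the D1 dopamine receptor of striatal projection neurons, had 5.47, 5.52 and 16.0 TPM in interneurons and 7.5, 6.53 and 7.43 TPM in dentate gyrus granule cells. The interneuron mean rested on replicate 3, and without that library dentate gyrus granule cells were called higher (log2 difference of interneurons minus dentate -0.41, adjusted p = 0.024). In the same library a list of striatal projection neuron markers summed to 917 TPM against 433 and 422 TPM in the other interneuron replicates, and Adora2a, the adenosine receptor of striatal neurons, stood at 21.3 TPM against 3.08 and 2.03 TPM; the part of such cells in the Drd1 level was not tested. Htr6, a serotonin receptor of neuronal cilia, was highest in astrocytes, at 7.48, 7.06 and 6.08 TPM against 3.88, 4.7 and 4.28 TPM in dentate gyrus granule cells (log2 difference 1.01, adjusted p = 5.3e-06). Hrh2, the H2 histamine receptor, had 11.0, 11.6 and 12.0 TPM in interneurons and 6.36, 6.71 and 6.29 TPM in microglia (log2 difference 0.70, adjusted p = 3.3e-05).

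The order of Hrh2 turned on which transcript was counted. Its 3 main transcripts share the coding exon that ends at chr13:54215079 (GRCm38, plus strand) and then join 3 different exons, which gives the receptor different ends. Hrh2-203, which the annotation classes as a target of nonsense-mediated decay, had 8.63, 8.98 and 8.86 TPM in interneurons and made up 76.6% ± 2.25 (SD, n = 3) of the gene there. Hrh2-201 was the main form in microglia, at 3.39, 3.05 and 2.97 TPM and 48.7% ± 4.15 of the gene. With protein_coding transcripts alone, Hrh2 was called higher in microglia than in interneurons (log2 difference of interneurons minus microglia -1.05, adjusted p = 0.0042). These transcripts were singled out after their values were seen. The junctions that tell them apart are shown because the cell types differ in which of them they use; each line gives the last 15 bases of the shared exon in lower case and the first 24 bases of the next exon in capitals, read from RefSeq's GRCm38.p6 sequence.
Hrh2-201: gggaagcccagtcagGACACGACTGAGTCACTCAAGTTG
Hrh2-202: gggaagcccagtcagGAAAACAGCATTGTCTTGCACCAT
Hrh2-203: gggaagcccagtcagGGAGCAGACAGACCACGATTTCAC
The next exons lie at chr13:54221220-54222432, chr13:54233180-54236180 and chr13:54222877-54223021, in that order. Hrh2-202 was the least abundant of them in interneurons and microglia, at 0.635 to 1.36 TPM.

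The Gi-coupled receptors, many of which act as brakes on transmitter release, were led by Hrh3. Hrh3, the H3 histamine receptor found on nerve endings, had 108, 105 and 110 TPM in layer V neurons and 72.3, 71.4 and 78.3 TPM in interneurons, and 3.53 to 21.5 TPM in the libraries of the other cell types. Layer V neurons and interneurons did not overlap and differed by 0.83 on the log2 scale (SE 0.10, adjusted p = 1.9e-06). Htr1a, the serotonin 1A receptor, was highest in dentate gyrus granule cells at 23.8, 23.5 and 24.3 TPM, above 11.3, 11.7 and 10 TPM in interneurons (log2 difference 1.19, SE 0.12, adjusted p = 5.8e-08). Chrm2, the M2 muscarinic receptor, was instead an interneuron transcript, with 19.8, 22.5 and 19.9 TPM there and no more than 2.18 TPM in any other library. Its log2 difference from layer V neurons was 2.98 (SE 0.29, adjusted p = 6.9e-08).

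Chrm4, the M4 muscarinic receptor, was shared more widely: layer V neurons held 28.9, 25.6 and 22.6 TPM and interneurons 20.5, 20.3 and 25.5 TPM. These ranges overlapped, although the fitted log2 difference of 0.50 was called (adjusted p = 0.00096). Drd2, the D2 dopamine receptor, had 12.1, 11.0 and 15 TPM in interneurons and 6.3, 5.08 and 8.0 TPM in microglia (log2 difference 0.65, adjusted p = 0.0047). The alpha 2 adrenergic receptors split by cell type: Adra2a had 9.83, 11.4 and 11.4 TPM in astrocytes and 7.7, 7.01 and 8.15 TPM in layer V neurons, and Adra2c had 11.6, 14.1 and 13.7 TPM in dentate gyrus granule cells and 10.2, 9.29 and 8.8 TPM in layer V neurons. Both leads were small (log2 differences of 0.61 and 0.27, adjusted p = 0.013 and 0.039). That of Adra2a was not called without layer V replicate 2 or without astrocyte replicate 3. That of Adra2c was not called in many settings. Among them were DESeq2 in place of edgeR (0.24, adjusted p = 0.06), both other scalings, both other filters, batch 1 alone and several fits with 1 replicate left out. Adra2c was also the second receptor of cerebellar granule cells by level, at 8.38, 7.0 and 6.22 TPM. Adra2b, the alpha 2B receptor, did not exceed 0.612 TPM in any library.

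The other Gi-coupled serotonin receptors were lower, and several had no resolved leading cell type. Htr5a had 9.5, 10.2 and 9.78 TPM in interneurons and 8.07, 7.56 and 7.59 TPM in layer V neurons, ranges that did not overlap although the difference in counts was not called (log2 difference 0.03, adjusted p = 0.86). Htr1b, a brake on serotonin and glutamate release, had 5.15, 5.17 and 5.75 TPM in layer V neurons and 4.55, 4.78 and 4.89 TPM in interneurons (log2 difference 0.49, adjusted p = 0.072). The layer V lead of Htr1b was called in some alternatives, such as without dentate replicate 3 (0.48, adjusted p = 0.0017). Htr1f had 2.1, 2.47 and 1.85 TPM in interneurons and 1.38, 1.73 and 1.56 TPM in layer V neurons (adjusted p = 0.76), and no read in cerebellar granule cells. Htr1d had 0.829, 1.51 and 2.23 TPM in interneurons and 0.612 to 0.837 TPM in astrocytes, with interneuron replicate 3 at the top of its group. Astrocyte replicate 2 gave 0.612 TPM in batch 1 and 1.18 TPM in batch 2, the batch of the interneuron libraries. The log2 difference between these cell types was 0.86, and 0.78 within batch 2, which holds 1 astrocyte library. Htr5b had 0.835, 1.44 and 1.76 TPM in dentate gyrus granule cells and 1.21, 1.32 and 1.2 TPM in layer V neurons, so the order of these cell types was not resolved (adjusted p = 0.75). Drd3 and Drd4, the other D2-like dopamine receptors, and Hrh4, the histamine receptor of blood cells, stayed under 0.435 TPM or at it in every library.

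The Gq-coupled receptors were dominated by Chrm1 and Adra1d, each highest in dentate gyrus granule cells. Chrm1, the M1 muscarinic receptor of forebrain principal neurons, had the highest level of any gene in the set, at 178, 203 and 178 TPM in the dentate libraries. Layer V neurons held 88.8, 84.4 and 89.2 TPM and interneurons 35.4, 37.1 and 38.6 TPM. All 6 cell types differed from their neighbours in this order, the dentate lead over layer V neurons being 0.81 on the log2 scale (SE 0.06, adjusted p = 4e-09), and cerebellar granule cells closed it at 0.057 TPM or less. Adra1d, the alpha 1D adrenergic receptor, followed the same order with 88.5, 104 and 81.2 TPM in dentate gyrus granule cells, 44.6, 43.0 and 44.5 TPM in layer V neurons and at most 0.111 TPM in cerebellar granule cells (log2 difference of the upper pair 0.83, SE 0.11, adjusted p = 3.9e-06).

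The other alpha 1 receptors were low in the dentate gyrus. Adra1b had 29.0, 26.3 and 25.9 TPM in layer V neurons, 18.1, 18.3 and 19.0 TPM in interneurons and 12.7, 11.2 and 10.7 TPM in astrocytes, but at most 0.772 TPM in dentate gyrus granule cells. Its lead in layer V neurons over interneurons was 0.95 on the log2 scale (SE 0.06, adjusted p = 2.4e-10). Adra1a, the alpha 1A receptor, was highest in astrocytes with 9.0, 8.99 and 10.3 TPM, above 6.91, 7.13 and 8.25 TPM in interneurons (log2 difference 0.69, adjusted p = 0.00012), and stayed at 1.71 TPM or less elsewhere. The 3 genes of this subfamily therefore had 3 different leading cell types.

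Of the serotonin 2 receptors, Htr2c, whose transcript is known for RNA editing, had 28.4, 37.8 and 29.1 TPM in interneurons and 11.3, 10.8 and 11.7 TPM in layer V neurons (log2 difference 1.16, SE 0.15, adjusted p = 3.3e-06). Htr2a, the main target of classical psychedelics, had 14.0, 17.8 and 19.3 TPM in interneurons and 12.5, 14.5 and 13.5 TPM in layer V neurons, and these ranges overlapped (adjusted p = 0.99). Htr2b, known mostly from the heart and gut, did not exceed 0.209 TPM. Chrm3, the M3 muscarinic receptor, had overlapping levels in interneurons (24.3, 23.9 and 21.4 TPM) and layer V neurons (23.9, 23.3 and 21.7 TPM), with a log2 difference of -0.32 and an adjusted p of 0.068. In some alternatives Chrm3 was called higher in layer V neurons, such as without dentate replicate 3 (-0.31, adjusted p = 0.0061). Chrm5, the M5 receptor, had 2.39, 2.7 and 2.37 TPM in dentate gyrus granule cells and 2.27, 2.13 and 1.76 TPM in interneurons (adjusted p = 0.38), and at most 0.274 TPM in any other library.

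Hrh1, the H1 receptor targeted by sedating antihistamines, was led by astrocytes. They held 22.5, 24 and 22.7 TPM against 14.1, 14.8 and 13 TPM in layer V neurons and 4.45, 6.01 and 4.52 TPM in interneurons, and the log2 difference from layer V neurons was 1.03 (SE 0.17, adjusted p = 3.2e-05). Part of the astrocyte level came from a transcript that the neurons hardly used. Hrh1-205 had 4.82, 7.89 and 5.53 TPM in astrocytes, 26.2% ± 5.92 (SD, n = 3) of the gene, and at most 0.181 TPM in any library of another cell type. Hrh1-203 had 16.6, 14.9 and 16.2 TPM in astrocytes and 12.2, 11.8 and 11.1 TPM in layer V neurons. Both hold the same coding exon (chr6:114479760-114481223, GRCm38, plus strand) and differ in their first, noncoding exon, which is chr6:114403666-114403897 in Hrh1-205 and chr6:114458519-114458556 in Hrh1-203. They were singled out after their values were seen. The 250 bases that precede each start in RefSeq's promoter table (GRCm38.p6) are printed because these cell types differed in the use of the starts, with matches to CANNTG, the E-box recognised by basic helix-loop-helix factors, in capitals.
Hrh1 upstream of Hrh1-205, chr6:114403416-114403665: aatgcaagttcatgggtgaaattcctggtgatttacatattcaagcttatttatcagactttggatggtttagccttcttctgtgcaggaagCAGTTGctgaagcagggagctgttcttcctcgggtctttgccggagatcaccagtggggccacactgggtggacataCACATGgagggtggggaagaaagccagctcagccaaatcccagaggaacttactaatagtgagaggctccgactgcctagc
Hrh1 upstream of Hrh1-203, chr6:114458272-114458521: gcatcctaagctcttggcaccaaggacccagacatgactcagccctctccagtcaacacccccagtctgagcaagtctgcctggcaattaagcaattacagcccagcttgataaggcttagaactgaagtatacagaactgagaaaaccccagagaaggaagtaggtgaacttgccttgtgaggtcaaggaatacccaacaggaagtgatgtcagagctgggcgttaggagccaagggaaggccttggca
The window before Hrh1-205 held 2 matches to CANNTG and that before Hrh1-203 none. The last 3 bases of the latter lie in the annotated first exon. CANNTG reads the same on both strands, and 66.2% of all 32851 promoter windows held a match, and neither Hrh1 window held the homeodomain core TAATTA, the Sp1 core GGGCGG, the TATA box TATAAA or the CCAAT box on either strand. A match is a description of the letters only.

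The ligand-gated channels formed the class with the largest gap between cell types. Htr3a, the subunit that forms the serotonin 3 channel, had 113 TPM in each of the 3 interneuron libraries and between 2.02 and 2.62 TPM in astrocytes, the next cell type, a log2 difference of 5.24 (SE 0.12, adjusted p = 8.8e-17). Its partner Htr3b, whose gene lies 23.9 kb away on chromosome 9, had 0.154 TPM or less in every library. Chrnb2, the beta 2 nicotinic subunit found in most brain nicotinic receptors, was the only receptor over 10 TPM in cerebellar granule cells. It had 52.6, 50.6 and 51.5 TPM there and 45.6, 45.2 and 44.3 TPM in interneurons. The log2 difference was small at 0.29 (SE 0.05, adjusted p = 7.8e-05). It was no longer called when libraries were scaled by their totals alone (0.04, adjusted p = 0.47) or with protein_coding transcripts alone (0.19, adjusted p = 0.28). Within batch 2, which holds 1 cerebellar library, it was 0.42. Of the other leads between batches, those of Htr3a, Chrm2 and Htr7 in interneurons were 5.19, 2.94 and 2.09 on the log2 scale within batch 2, and that of Htr4 in the dentate gyrus 2.87, each against or from a cell type with 1 library there. Chrnb2 overlaps the protein-coding gene Adar on the opposite strand, so their reads are told apart only as far as the transcript models and any strand setting allowed.

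Chrna4, the alpha 4 subunit that pairs with beta 2 in the high-affinity nicotinic receptor, did not share the cerebellar level of Chrnb2. It had 27.4, 26.9 and 26.8 TPM in layer V neurons and 17.3, 18.8 and 18.5 TPM in interneurons (log2 difference 0.53, adjusted p = 0.00023), but at most 0.171 TPM in cerebellar granule cells. Chrna7, which forms homomeric calcium-permeable receptors, had 26.2, 30.1 and 29.5 TPM in interneurons and 15.2, 17.8 and 14.5 TPM in dentate gyrus granule cells (log2 difference 0.78, SE 0.09, adjusted p = 4.2e-07). In cerebellar granule cells it held 5.03, 4.91 and 4.73 TPM and ranked there next after Chrnb2 and Adra2c.

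Chrna3, Chrna5 and Chrnb4 lie side by side on chromosome 9, with gaps of 2.3 and 1.6 kb, and are best known from autonomic ganglia and the habenula. Chrna3 had 4.64, 4.69 and 3.97 TPM in interneurons and 2.71, 2.49 and 2.5 TPM in cerebellar granule cells (log2 difference 0.66, adjusted p = 0.0041). Chrnb4 had 1.51, 1.21 and 1.23 TPM in cerebellar granule cells and 1.1, 0.8 and 0.728 TPM in interneurons (adjusted p = 0.12), while Chrna5 had 2.64, 3.11 and 2.93 TPM in interneurons (log2 difference from dentate gyrus granule cells 1.53, adjusted p = 4.9e-06) and at most 0.019 TPM in cerebellar granule cells. Neighbours on the chromosome thus did not share 1 order of cell types. Chrna2, the subunit of hippocampal oriens-lacunosum moleculare interneurons, had 0.911, 1.34 and 1.61 TPM in interneurons and 0.229 TPM or less elsewhere (log2 difference from astrocytes 2.41, adjusted p = 1.5e-05). Chrnb1, a subunit of the muscle receptor, was highest in microglia at 2.04, 2.03 and 1.76 TPM (log2 difference from astrocytes 1.43, adjusted p = 0.00032). Chrna1, also of the muscle receptor, Chrna6, known from dopamine neurons, and Chrna9 and Chrna10, known from the inner ear, stayed under 1 TPM in every library.

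Chrnb3, an accessory nicotinic subunit, had similar levels in all 4 neuronal cell types, with means of 1.17 to 1.73 TPM, but different transcripts made them up. Chrnb3-202 had 1.21, 1.57 and 1.79 TPM in dentate gyrus granule cells and 1.54, 1.44 and 1.42 TPM in cerebellar granule cells, against at most 0.022 TPM in layer V neurons. Chrnb3-201 had 1.13, 1.2 and 1.1 TPM in layer V neurons, 1.0, 1.0 and 1.2 TPM in interneurons and 0 TPM in cerebellar granule cells. The short form lacks exon 3 of the long form, 45 coding bases at chr8:27386782-27386826 (GRCm38, plus strand), which removes 15 codons without a change of frame, and its last exon has 853 bases in place of 3071. Which of these differences set the transcript estimates apart was not tested, and the transcripts were singled out after their values were seen. The coding sequence on either side of the exon is shown with exon 3 in capitals, from RefSeq's GRCm38.p6 sequence.
Chrnb3-201: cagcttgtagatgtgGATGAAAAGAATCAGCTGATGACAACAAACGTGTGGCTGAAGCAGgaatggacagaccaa
Chrnb3-202: cagcttgtagatgtggaatggacagaccaa
Since the transcripts differ in length, counts and TPM gave Chrnb3 different orders: dentate gyrus granule cells were ahead of interneurons by mean TPM, and behind them by the fit on counts (log2 difference -0.56, adjusted p = 0.0027). Of 22 receptor genes with at least 2 transcripts and at least 1 TPM in at least 2 cell types, the most abundant transcript differed between cell types for 6, namely Adra1b, Chrnb2, Chrnb3, Drd1, Hrh2 and Htr7. For Adra1b this says little, as its transcripts Adra1b-202 and Adra1b-204 have the same exons.

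**Figure D2:**
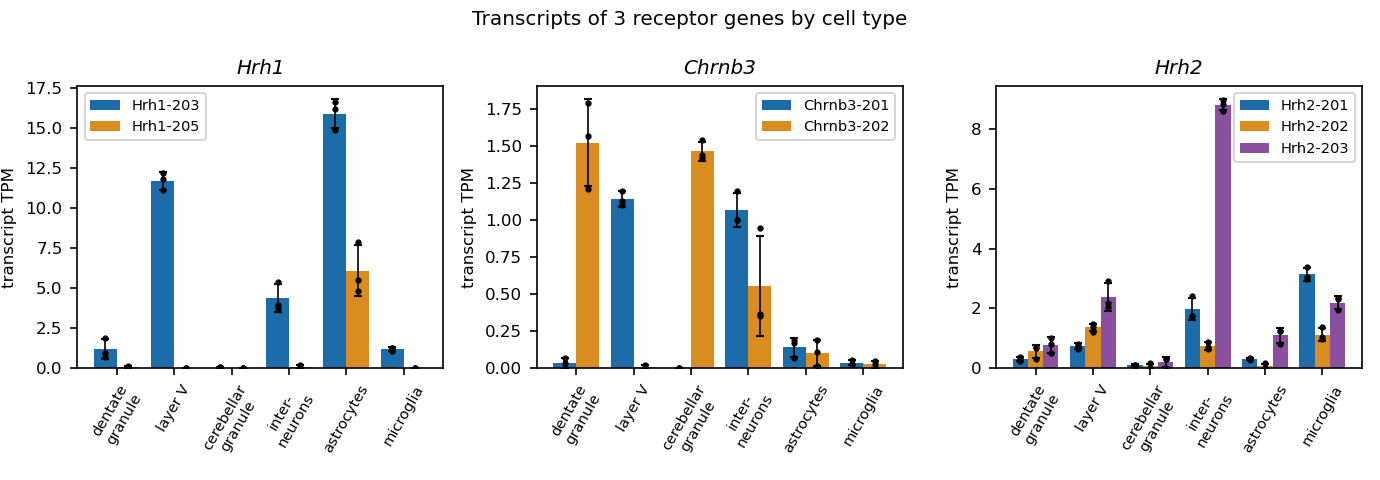
Mean transcript level in TPM of Hrh1, Chrnb3 and Hrh2 in the 6 cell types, with points for the 3 libraries and bars of error showing the SD. Hrh1-205 appears in astrocytes (4.82 to 7.89 TPM), Chrnb3-202 in both granule cell types and Hrh2-203 in interneurons (8.63 to 8.98 TPM).

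**Figure D3:**
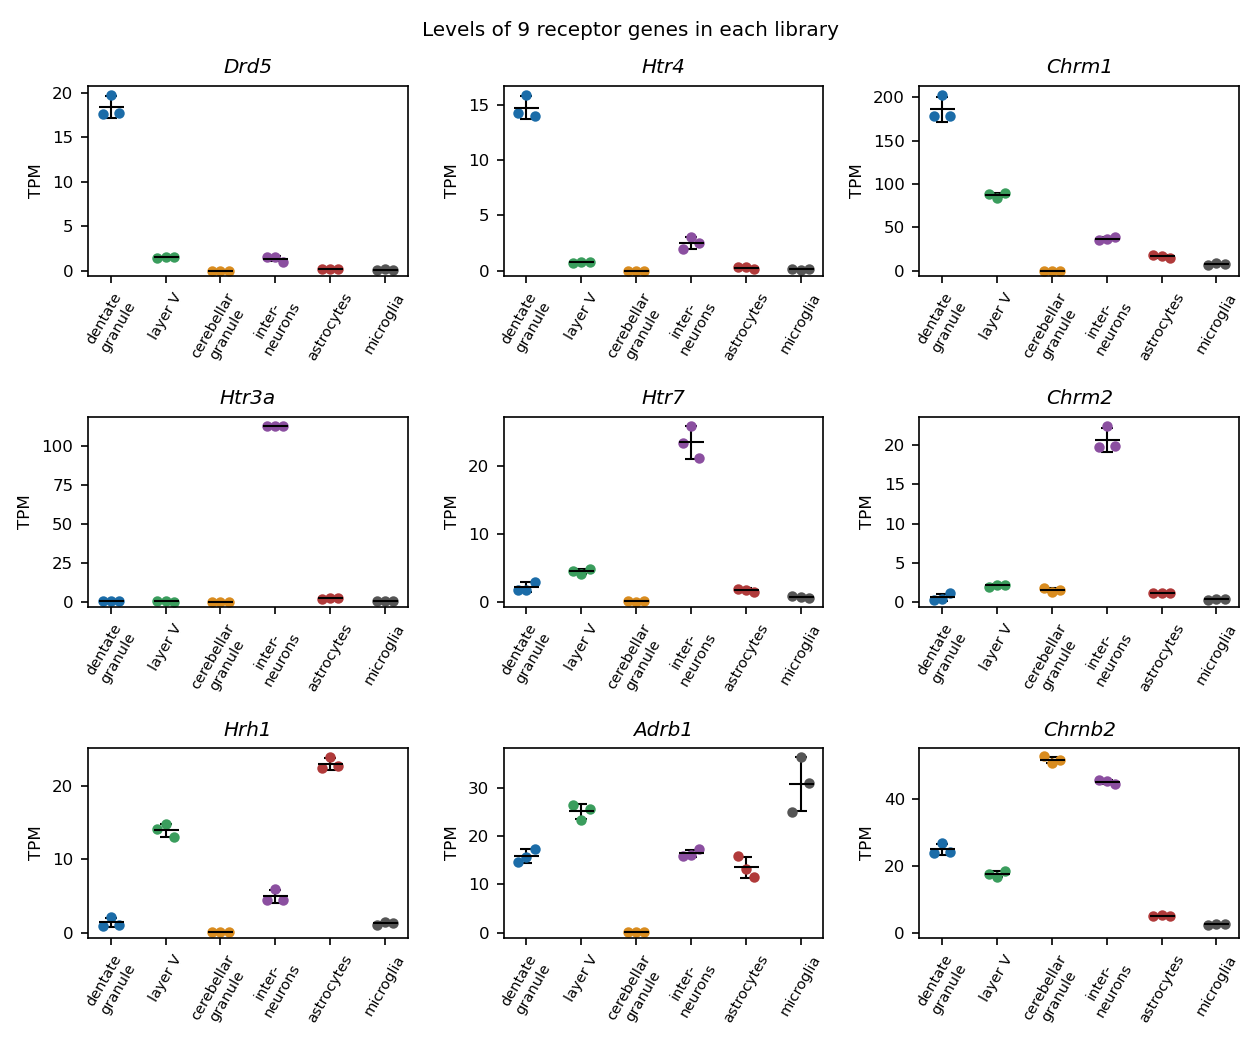
Level in TPM of 9 receptor genes in each of the 18 libraries, with the mean (long line) and SD (short bars) of each cell type. Drd5, Htr4 and Chrm1 are highest in dentate gyrus granule cells, Htr3a, Htr7 and Chrm2 in interneurons, Hrh1 in astrocytes, Adrb1 in microglia and Chrnb2 in cerebellar granule cells.

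Summed over the Gi, Gq and channel classes, the cell types differed in which receptors carried the highest level. Dentate gyrus granule cells had the highest Gq sum, at 296 TPM ± 25.6 (SD, n = 3), of which Chrm1 gave 63.1%, followed by layer V neurons at 222 TPM ± 3.81. The Gi sum was 182 TPM ± 3.42 in layer V neurons and 173 TPM ± 6.07 in interneurons, and Hrh3 gave 59.1% and 42.7% of it. Interneurons had a channel sum of 217 TPM ± 2.39, of which Htr3a gave 52.0%, against 53.6 to 62.3 TPM in the other neurons. Cerebellar granule cells had a sum of 1.81 TPM for Gq receptors, and 82.8% of their channel sum of 62.3 TPM was Chrnb2. The sums are descriptions and rest on the few genes named.

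**Figure D4:**
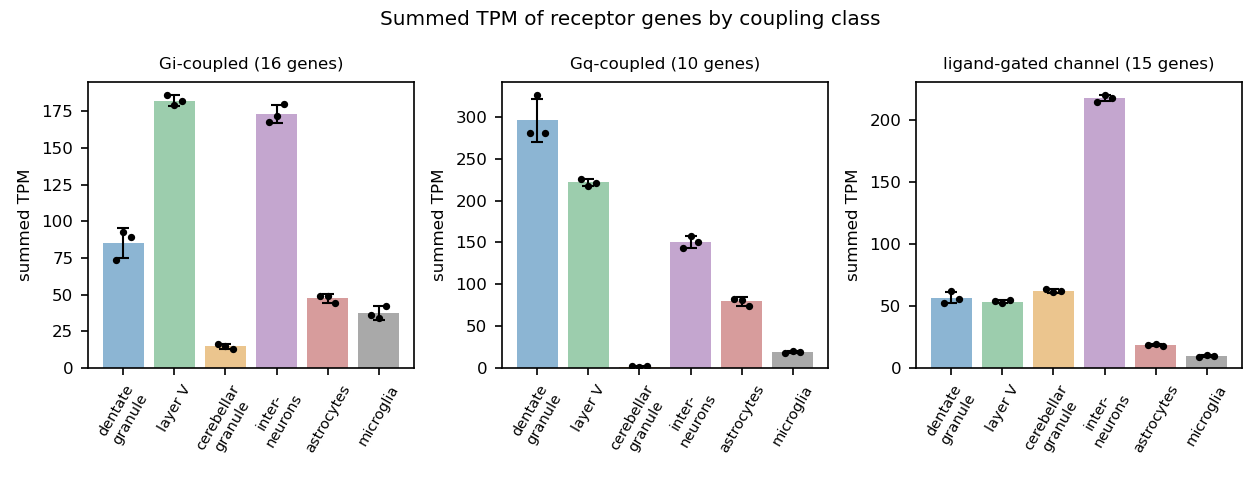
Summed TPM of the Gi-coupled, Gq-coupled and channel receptor genes (16, 10 and 15 genes) in the 6 cell types, bars giving the mean, error bars the SD and points the 3 libraries. Gq receptors peak in dentate gyrus granule cells at 296 TPM and channels in interneurons at 217 TPM.

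Each cell type was then compared with the mean of the other 5 in the same fit. In interneurons 41 of the 45 receptor genes tested were higher, where 35.1% of all genes were called higher, and 1 was lower, where 32.2% of all genes were. Their median log2 difference was 2.21, against -0.02 over all genes tested. In cerebellar granule cells 38 were lower (46.1% of all genes) and 5 higher (36.0% of all genes), with a median of -4.10 against -0.27. The 5 were Chrnb2, Chrnb3, Chrna3, Chrnb4 and Adra2c, so that 4 of them were nicotinic subunits. In layer V neurons 34 were higher (37.8% of all genes) and 5 lower (35.4%), with a median of 1.69 against -0.02, and the lower genes included Htr3a, Chrnb4, Chrnb1 and Adra2b.

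In dentate gyrus granule cells and astrocytes the receptors followed the background more closely. In microglia a smaller share of receptors was higher (20.0%) and a larger share lower (62.2%) than over all genes. Dentate gyrus granule cells had 22 higher (35.3% of all genes) and 17 lower (31.4%), with a median of 0.37 against -0.01. Astrocytes had 23 higher (40.2%) and 10 lower (33.0%), with a median of 0.49 against 0.08. In microglia 28 were lower (37.6% of all genes) and 9 higher (43.4%), with a median of -0.89 against 0.09; the 9 included Chrnb1, Adrb1, Drd2, Hrh2, Adra2b, Adrb3, Htr1d and Adra2a. Against a mean of logs that includes the near-empty cerebellar granule cells, modest levels can count as higher, and comparisons of single pairs carry no such term. The fit within batch 2 alone holds 1 library for each cell type except interneurons and microglia, so its counts are not set beside these shares.

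**Figure D5:**
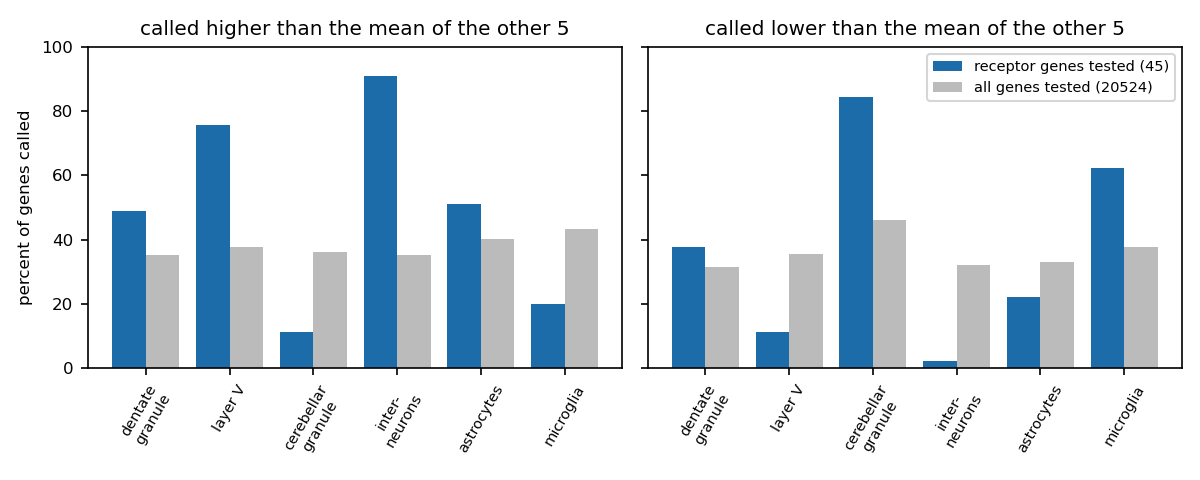
Percent of the 45 receptor genes tested (blue) and of all 20524 genes tested (grey) that were called higher (left) or lower (right) in each cell type than the mean of the other 5. Receptor genes called higher are most frequent in interneurons (91.1%) and those called lower in cerebellar granule cells (84.4%).

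Taking the 4 neuronal cell types against the 2 glial ones, 20 receptor genes were higher in neurons (36.4% of all genes) and 17 lower (46.8%), with a median log2 difference of -0.06 against -0.18 over all genes. Cerebellar granule cells weighed on this mean: Chrm1 averaged 77.8 TPM in neurons and 12.4 TPM in glia and still had a log2 difference of -0.22. In a contrast without them, chosen after their levels were seen, 31 receptor genes were higher in the 3 remaining neuronal types (39.2% of all genes) and 9 lower (44.0%), with a median of 1.52 against -0.09. The 9 higher in glia included Drd2, Adra2a, Adrb1, Chrnb1, Adra1a, Hrh1, Adra2b and Htr1d. This contrast too averages logs over cell types, and a gene higher in glia by it can lead in a neuronal type. Drd2 and Htr1d were highest in interneurons (means of 12.7 and 1.52 TPM). In the fit over 18 libraries, interneurons were called above every other cell type for both. The batch 2 library of astrocyte replicate 2, outside that fit, held 1.18 TPM of Htr1d, within the interneuron range.

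Cell types from the same tissue were set against each other to leave the brain region out. In hippocampus, 9 receptor genes were higher in dentate gyrus granule cells (32.6% of all genes) and 28 in interneurons (31.2%). The dentate genes were Chrm1, Adra1d, Htr1a, Drd5, Htr4, Htr6, Adra2c, Htr5b and Chrna1. In cortex, layer V neurons exceeded astrocytes for 28 (38.2% of all genes) and fell below them for 10 (39.0%), and exceeded microglia for 31 (40.5%) and fell below them for 7 (42.7%). Between the glial types, 31 were higher in astrocytes (39.8%) and 4, among them Hrh2, Adrb1 and Chrnb1, in microglia (36.3%).

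Across tissues, the near absence of most receptors in cerebellar granule cells recurred in every pairing. Of the 45 genes tested, 35 were higher in dentate gyrus granule cells (40.8% of all genes) and 5 lower (33.1%), and 38 were higher in layer V neurons (42.0%) and 4 lower (34.1%). Cerebellar granule cells exceeded interneurons for 2 (32.9%) and fell below them for 41 (42.3%), exceeded astrocytes for 7 (35.1%) and fell below them for 37 (47.6%), and exceeded microglia for 7 (36.5%) and fell below them for 36 (49.0%). Layer V neurons and interneurons had like numbers of leading genes, with 16 genes higher in the former (29.0%) and 17 in the latter (31.7%), and a median log2 difference of -0.03 against -0.04 over all genes. Dentate gyrus granule cells, which share their driver with layer V neurons, had 12 genes above them (33.1%) and 24 below (30.3%). Against glia, dentate gyrus granule cells had 16 genes above astrocytes (36.0%) and 20 below (38.2%), and 24 above microglia (38.5%) and 12 below (41.3%), while interneurons had 32 above astrocytes (35.1%) and 6 below (38.1%), and 38 above microglia (39.1%) and 3 below (41.8%).

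Neuronal transcripts were also present in the glial libraries. Over 5 markers of cortical excitatory neurons (Slc17a7, Fezf2, Neurod6, C1ql3 and Bcl11b), astrocytes held 8.77% to 23.9% and microglia 4.94% to 12.7% of the layer V level. Of 32 receptor genes with a mean of at least 1 TPM in at least 1 of these 3 cell types, 22 in astrocytes and 20 in microglia exceeded the highest marker share. Several of the most abundant neuronal receptors did not: Chrm1 stood at 19.3% and 9.1% of its layer V level, and Hrh3 at 12.8% and 11.7%. The 5 markers are of excitatory neurons and do not measure RNA of interneurons. Htr3a had means of 2.29 TPM in astrocytes, 0.528 TPM in microglia and 0.19 TPM in layer V neurons, against 113 TPM in interneurons. Interneuron markers summed to 285 to 326 TPM in astrocytes, 91.5 to 97.7 TPM in microglia and 310 to 349 TPM in layer V neurons. The part of neuronal RNA in these levels was not tested. Receptors above their layer V level included Adra1a, Adra2a, Chrnb1, Drd1, Drd2, Hrh1, Htr3a and Htr6 in astrocytes, and Adrb1, Chrnb1, Drd2, Hrh2 and Htr3a in microglia. Adora2a, the striatal marker, was likewise higher in astrocytes (14.8, 13.3 and 12.5 TPM) and microglia (7.51, 4.98 and 8.55 TPM) than in layer V neurons (2.79, 2.24 and 2.54 TPM); its relation to the Drd1 and Drd2 levels of those libraries was not tested.

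Around the receptors, the genes that make, move and break down their ligands were highest for enzymes and transporters that remove them. Of 25 such genes, 22 were tested. In astrocytes 15 were called higher (40.2% of all genes) and 3 lower (33.0%), with a median log2 difference of 1.79 against 0.08 over all genes. In interneurons 12 were higher (35.1%) and 4 lower (32.2%), and in cerebellar granule cells 3 were higher (36.0%) and 15 lower (46.1%). The counts were 9 and 6 in layer V neurons (37.8% and 35.4%), 8 and 4 in microglia (43.4% and 37.6%) and 5 and 10 in dentate gyrus granule cells (35.3% and 31.4%), and those of layer V neurons lay near the shares over all genes. Maob, a monoamine oxidase of the outer mitochondrial membrane, had 143, 124 and 134 TPM in astrocytes and at most 7.74 TPM elsewhere, with a log2 difference from the mean of the others of 6.59 (SE 0.07, adjusted p = 8.9e-22). Maoa had 36.8, 37.1 and 35.3 TPM in astrocytes and 30.9, 30.9 and 31.7 TPM in cerebellar granule cells, above 6.39 to 17.5 TPM in the other libraries.

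Slc29a4, a low-affinity monoamine transporter of the plasma membrane, was shared by the granule cells: 136, 163 and 132 TPM in the dentate gyrus and 108, 108 and 97.3 TPM in the cerebellum, with at most 13.7 TPM in any other library. Ache, which splits acetylcholine, had 167, 169 and 171 TPM in interneurons, above 52.0 to 65.0 TPM in layer V neurons and cerebellar granule cells. Hnmt, which inactivates histamine, had 18.9 to 58.1 TPM in 5 cell types and at most 0.236 TPM in cerebellar granule cells. Of the organic cation transporters, Slc22a2 stood at 1.44 to 2.35 TPM in microglia and Slc22a3 at 1.07 to 1.28 TPM in layer V neurons.

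The synthesis genes gave a few small signals. Hdc, which makes histamine, had 5.89, 4.64 and 5.34 TPM in astrocytes, Tph2, which starts serotonin synthesis in neurons, 3.17, 2.91 and 3.05 TPM in the same libraries, and Dbh, which makes noradrenaline, 1.5 to 2.04 TPM in dentate gyrus granule cells. Ddc, the decarboxylase of several monoamines, ranged from 4.61 to 8.4 TPM in microglia. In interneurons, Th, the first enzyme of dopamine synthesis, had 4.1, 4.16 and 5.04 TPM, the vesicular transporter Slc18a2 1.91 to 3.62 TPM, and the choline transporter Slc5a7 2.03 to 2.83 TPM. The plasma membrane transporters for noradrenaline, dopamine and serotonin (Slc6a2, Slc6a3 and Slc6a4), and Chat, Slc18a1, Slc18a3, Tph1, Pnmt and Bche, had means under 1 TPM in every cell type.

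Proteins that help or restrain nicotinic receptors also differed between the cell types. Of 8 genes, 7 were tested. In interneurons 6 were higher (35.1% of all genes) and 0 lower (32.2%), and in microglia 1 was higher (43.4%) and 6 were lower (37.6%). Lypd1, a Ly6 protein, had 246, 277 and 279 TPM in dentate gyrus granule cells and at most 0.25 TPM in cerebellar granule cells. Lypd6 had 58.4, 57.3 and 69.7 TPM in interneurons and 59.0, 53.7 and 51.3 TPM in astrocytes, and Lypd6b 36.4, 36.2 and 42.2 TPM in interneurons. Lynx1, which dampens nicotinic currents, had 268 to 309 TPM in layer V neurons, cerebellar granule cells and interneurons and 29.8 to 174 TPM in the other cell types. The chaperones Ric3 and Tmem35a had 90.8 to 95.7 TPM and 88.0 to 91.5 TPM in cerebellar granule cells, beside their Chrnb2 and Chrna7. Rapsn, which clusters the muscle receptor, had 30.0, 31.8 and 29.2 TPM in microglia (log2 difference 7.46, SE 0.23, adjusted p = 1.2e-15), the cell type in which Chrnb1 was highest; Slurp1 and the muscle subunits Chrnd, Chrne and Chrng had means of at most 0.249 TPM.

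Downstream of the receptors, the genes of largest fold differed in their leading cell type. Gna14, a Gq family alpha subunit, had 7.85, 7.06 and 6.97 TPM in interneurons and at most 0.283 TPM elsewhere (log2 difference 7.10, SE 0.16, adjusted p = 1.4e-15). Gna13 was highest in astrocytes at 108, 104 and 101 TPM, and Gnai2, a Gi subunit, in microglia at 1071, 1051 and 1015 TPM. Of the 12 alpha subunits, 7 were higher (35.1% of all genes) and 4 lower (32.2%) in interneurons, and 5 were higher (43.4%) and 7 lower (37.6%) in microglia. Among 13 adenylyl cyclases and phospholipase C beta genes, microglia had 5 higher (43.4% of all genes) and 8 lower (37.6%), with the largest differences for Plcb2 (25.7, 26.9 and 24.1 TPM), Adcy7 (18.6, 20.0 and 18.8 TPM) and Adcy4 (9.05, 4.18 and 8.45 TPM). Of 7 receptor kinases and arrestins, Arrb2 had 391 to 427 TPM in microglia, Grk5 11.9 to 12.2 TPM in cerebellar granule cells and Grk3 46.2 to 51.5 TPM in interneurons.

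As a set, the receptor promoters were rich in G and C. The promoter table held 47 windows of 38 of the 50 genes, with a median GC content of 60% against 52.4% over all windows. GGGCGG, the core of an Sp1 site, was found on either strand in 53.2% of the receptor windows and 32.7% of all windows. The motif of the TATA box, TATAAA, was found in 4.26% and 12.4%. CANNTG was found in 51.1% against 66.2%, CCAAT in 25.5% against 33.8% and TAATTA, a homeodomain core, in 6.38% against 4.84%. The windows have the same length, and the difference in base composition alone changes how often such letters occur.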

How the data were processed

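Ribosome-bound mRNA was measured in 22 libraries of 6 cell types, prepared with a stranded mRNA kit. Per the study's methods and the submitters' processing notes, adapters were removed with cutadapt (3.5) and abundance estimated with kallisto (0.46.2) on GENCODE M24 mouse transcripts (GRCm38). The deposited values are estimated counts and TPM per transcript, made by the authors with kallisto. The strand setting was not given in the sources used here. The authors' tool for testing, sleuth, was not run.

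Both units were summed over all transcripts of a gene. For replicates sequenced in both batches, the batch 1 library was used. Summed counts were rounded, filtered with filterByExpr, scaled by TMM and tested with edgeR (4.0.16, R 4.3.3) by its quasi-likelihood test in 1 fit over the 18 libraries, with Benjamini-Hochberg adjustment over all 20524 genes. A fitted log2 difference therefore rests on counts and can depart from a ratio of TPM. The labels call the libraries biological replicates, with interneuron libraries pooled from 2 mice. Tables and figures used Python 3.11.15, numpy 2.4.6, pandas 2.3.3 and matplotlib 3.10.9.

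All but 1 of the receptor genes are named, and values of that gene and of some ligand genes are not reported here. Those of at least 1 TPM in a cell type are given per library where highest and the others by range, as are genes of the ligand and nicotinic helper lists of at least 1 TPM and the 3 called genes of largest fold in the other lists. Members and lists were chosen with earlier results of these data known. The test was also run on simulated counts for interneurons against the others (19246 genes). It recovered 86 of 97 genes changed 2-fold and 98 of 98 changed 4-fold, and called 7 unchanged genes. These values are totals over all levels, and recovery of genes with few reads was not tested separately. Alternatives were DESeq2 (1.42.0), RLE or library size scaling, other filters, protein_coding transcripts alone, batch 2 libraries, a batch term over all libraries, a replicate block, fits within each batch and each replicate left out. For 1 batch 2 library of layer V replicate 1, the labelled sex differed from that of its batch 1 library, which sex-linked transcripts matched. It entered only the alternatives that use batch 2.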

Additional observations from a re-analysis of the deposited data

How the results depend on the processing

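Counts of receptor genes called moved by over 1.5 times in few settings. Within batch 2, those lower in dentate gyrus granule cells were 11 (17 in the fit over 18 libraries), those lower in layer V neurons 3 (5) and those higher in cerebellar granule cells 3 (5). Fewer libraries enter that fit, 1 each for these cell types and astrocytes. Without cerebellar granule cells, a contrast chosen after seeing the data, 31 were higher and 9 lower in neurons than in glia (20 and 17). Each count stayed within 1.5 times when any 1 replicate was left out: 38 to 42 were higher in interneurons, 37 to 39 lower in cerebellar granule cells, 33 to 34 higher in layer V neurons and 24 to 29 lower in microglia, and 30 to 34 genes had a cell type above each of the other 5. The lead of interneurons over dentate gyrus granule cells for Drd1 became -0.01 within batch 2 and ranged from -0.41 to 0.49 with 1 replicate left out, the lowest value without interneuron replicate 3. Hrh2 in interneurons against microglia became -1.05 with protein_coding transcripts alone. Htr2a in interneurons against layer V neurons became 0.12 with library size scaling and 0.02 with no filter, and ranged from -0.08 to 0.10 with 1 replicate left out. Htr5a in the same pair became -0.01 with protein_coding transcripts alone. Htr5b in dentate gyrus granule cells against layer V neurons became 0.10 within batch 2 and ranged from -0.36 to 0.09 with 1 replicate left out. Apart from the changes of Hrh2, whose transcripts were removed by construction, and the fits with fewer libraries, the cause was not tested. Replicate numbers did not pair the samples (correlations of same-numbered deviations from -0.0999 to 0.109), and with the replicate number as a block 41 genes were still higher in interneurons and 21 in astrocytes (23 without it). Levels near 1 TPM rest on few reads and their order among cell types is the least certain.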
